A study of Mus musculus with 54 samples.

Results

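Ifitm1, Ifitm2 and Ifitm3 are 3 interferon-induced transmembrane genes of the mouse and belong to what germ cell work knows as the Fragilis family. They were taken by name from the expression table, as 3 of its 20036 genes, and all 3 passed the filter on low values that left 14416 genes tested. Messenger RNA had been sequenced from 9 lines of mouse cells, each sampled as embryonic stem cells (ESC), as epiblast-like cells (EpiLC) and as primordial germ cell-like cells (PGCLC) at day 2, with 2 libraries for each of 27 groups, 54 in all. The lines were those titled Ovol1KO, Ovol2KO, Ovol3KO and TKO, whose genotype tags read Ovol1 mutant, Ovol2 mutant, Ovol3 mutant and TKO, then Cdh1-Tg, Ovol2a/2b-Tg, Ovol2b-Tg and Ovol2a-Tg, whose tags read Cdh1 OE, Ovol2a/2b OE, Ovol2b OE and Ovol2a OE, and wild type (WT). All were of the strain C57BL/6 X 129/SvJ. The labels do not spell out TKO, nor do they give the promoter of the transgenes, the genotype on which they were placed or whether a line is 1 clone. The 3 Ovol genes encode transcription factors with zinc fingers, and E-cadherin, the product of Cdh1, joins epithelial cells to each other.

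The libraries held 2158379 to 26728516 reads, as recovered from the values. Which part of each gene was deleted is not given, so gene-level values do not check the knockout labels. Ovol2 was at 4.74 and 6.68 TPM in Ovol2KO PGCLC and 1.52 and 0.835 TPM in TKO PGCLC, against 11.3 and 6.98 TPM in WT PGCLC, but at 33.7 and 34.6 TPM in Ovol2KO EpiLC, against 9.51 and 12.7 TPM in WT EpiLC. Ovol3 was at 9.84 and 7.25 TPM in Ovol3KO PGCLC, against 9.39 and 9.66 TPM in WT PGCLC, and Ovol1 was under 3 TPM in every library. The transgenes were visible: Ovol2 stood at 69.9 TPM or more in every library of the Ovol2 transgenic lines, against at most 12.7 TPM in WT, and Cdh1 at 562 to 701 TPM in Cdh1-Tg, against 312 to 468 TPM in WT.

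IFITM proteins are small membrane proteins that block the entry of many enveloped viruses, and their genes are switched on by interferons in most cell types. In the mouse embryo Ifitm3, or Fragilis, marks the part of the epiblast from which the germ line is set aside, and Ifitm1 and Ifitm3 are expressed in early primordial germ cells. Mice that lack the Ifitm gene cluster still form germ cells.

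The genes lie together on chromosome 7 of mm10 (GENCODE M21). Ifitm2 is at chr7:140954837-140955987 on the minus strand, Ifitm1 at chr7:140967221-140969825 on the plus strand and Ifitm3 at chr7:141009586-141010770 on the minus strand, with Ifitm5 and Ifitm6 at either side of the trio. The bases before their starts are shown because the 3 genes fell together in EpiLC and because interferon-responsive genes carry known elements there. The sequences come from the RefSeq promoter table (GRCm38.p6, the assembly of mm10), in which 3 of the 3 genes were matched. Each is written 5′ to 3′ on the strand of its gene, in lower case. Capitals mark matches to GAAANNGAAA, the core of the interferon-stimulated response element, or to TTCNNNGAA, the core of a STAT binding site.
Ifitm1 upstream (chr7:140967826-140968027, plus strand, 202 bases): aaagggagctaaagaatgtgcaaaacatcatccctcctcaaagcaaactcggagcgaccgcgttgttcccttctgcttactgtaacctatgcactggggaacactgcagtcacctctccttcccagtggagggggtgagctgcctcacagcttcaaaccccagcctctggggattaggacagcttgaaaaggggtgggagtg
Ifitm2 upstream (chr7:140955988-140956211, minus strand, 224 bases): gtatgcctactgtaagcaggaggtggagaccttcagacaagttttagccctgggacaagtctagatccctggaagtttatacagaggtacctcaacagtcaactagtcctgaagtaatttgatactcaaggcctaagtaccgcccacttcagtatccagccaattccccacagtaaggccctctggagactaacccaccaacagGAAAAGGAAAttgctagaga
Ifitm3 upstream (chr7:141010771-141010994, minus strand, 224 bases): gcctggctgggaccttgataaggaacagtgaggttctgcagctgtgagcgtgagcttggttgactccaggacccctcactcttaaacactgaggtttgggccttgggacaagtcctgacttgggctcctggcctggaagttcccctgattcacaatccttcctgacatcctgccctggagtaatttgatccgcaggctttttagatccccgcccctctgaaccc
Ifitm3 start (chr7:141010716-141010745, minus strand, 30 bases): cagGAAAAGGAAAcTTCTGAGAAACCGAAA

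The Ifitm2 upstream bases held 1 match to GAAANNGAAA, which begins 46 bases before the RefSeq start used. The RefSeq span of Ifitm2 reaches chr7:140959686, so these bases lie inside that span. The 30 bases at the Ifitm3 start lie in its first exon and held 2 such matches, with 1 match to TTCNNNGAA between and overlapping the second of them. The Ifitm1 upstream bases lie in an intron of a longer annotated Ifitm1 transcript and held neither. Both strands of windows of 300 bases, from 250 before each start, were searched. GAAANNGAAA was found in 3.44% of 32851 promoter windows in the table and TTCNNNGAA in 8.3%. CCGTTA, a core of the OVOL motif, was found in 2.76% of windows and in no Ifitm window. Ifitm2 and Ifitm3 share the 13 bases CAGGAAAAGGAAA, at different distances from their starts, a run held by 0.0122% of windows. The run was picked from these same 2 windows, which count in that share, so its rarity adds no support. These matches describe the letters of the windows and say nothing of binding in these cells.

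Levels are given in TPM, the share of each transcript in a library after correction for its length, scaled to a sum of 1000000, so that levels of different genes can be set side by side. In WT, Ifitm1 stood at 460 and 476 TPM in ESC, at 35.4 and 27.9 TPM in EpiLC and at 209 and 222 TPM in PGCLC. Ifitm2 stood at 857 and 866 TPM in ESC, 367 and 378 in EpiLC and 441 and 439.9 in PGCLC. Ifitm3 stood at 676 and 702 TPM in ESC, 131 and 147 in EpiLC and 463 and 458 in PGCLC. Each gene was thus high in ESC, lowest in EpiLC and between in PGCLC, and the libraries of the 3 stages did not overlap for any of the 3. The share of all tested genes with this order in WT was not counted.

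A gene was called changed where the Benjamini-Hochberg adjusted p of limma, over all 14416 tested genes, was under 0.05 and the log2 fold change was at least 1 in size. Fold changes are on the scale of log2(TPM + 1), with their standard errors. Between EpiLC and ESC of WT, all 3 genes fell. The log2 fold change was −3.85 ± 0.12 for Ifitm1 (limma, adjusted p = 2.87e-24), −2.30 ± 0.09 for Ifitm3 (limma, adjusted p = 1.03e-21) and −1.21 ± 0.09 for Ifitm2 (limma, adjusted p = 2.4e-14). In that comparison 20.6% of tested genes were called, 9.33% higher and 11.2% lower. Between PGCLC and EpiLC of WT, Ifitm1 rose by 2.74 ± 0.12 (limma, adjusted p = 6.08e-20) and Ifitm3 by 1.72 ± 0.09 (limma, adjusted p = 5.45e-18). Ifitm2 differed by 0.24 ± 0.09 (limma, adjusted p = 0.0162), short of the fold threshold. Of tested genes 21.1% were called there, 13.5% higher and 7.62% lower. PGCLC of WT did not regain the ESC levels: the log2 fold change of PGCLC over ESC was −1.11 for Ifitm1, which was called, and −0.97 for Ifitm2 and −0.58 for Ifitm3, which passed the p threshold alone (limma, adjusted p = 6.39e-10, 5.61e-12 and 8.78e-07), where 25.3% of tested genes were called. No label says that paired libraries were grown as separate cultures, so these p-values measure the spread between the libraries alone. In bulk RNA a smaller share of expressing cells and less RNA per cell cannot be told apart.

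The descent into EpiLC was shared by the lines. EpiLC libraries lay below ESC libraries without overlap in 9 of 9 lines for each of the 3 genes. In 13.5% of tested genes the EpiLC libraries lay below those of ESC in every line. Mean ESC levels were 9.0 to 40.1 times the EpiLC levels for Ifitm1, 2.45 to 6.87 times for Ifitm3 and 1.83 to 3.31 times for Ifitm2. PGCLC libraries lay above EpiLC libraries in 9 of 9 lines for Ifitm1 and Ifitm3, a pattern that 16.9% of tested genes showed in every line, and in 7 of 9 for Ifitm2. The 2 exceptions for Ifitm2 were Ovol1KO, at 354 and 384 TPM in PGCLC against 448 and 383 in EpiLC, and Ovol3KO, at 425 and 445 TPM in PGCLC against 412 and 457 in EpiLC. PGCLC levels relative to ESC ranged widely by line. Ifitm1 in PGCLC was 149.8% of its ESC mean in TKO, 127% in Ovol2KO and 106% in Ovol2b-Tg, against 46.1% in WT. In those 3 lines the PGCLC libraries lay above the ESC libraries of the same line, and in the other 6 they lay below. For Ifitm3 the PGCLC libraries lay above ESC in Cdh1-Tg, Ovol2b-Tg and Ovol2a/2b-Tg, and for Ifitm2 in TKO. The share of all tested genes with such a separation of PGCLC from ESC was not counted.

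**Figure D1:**
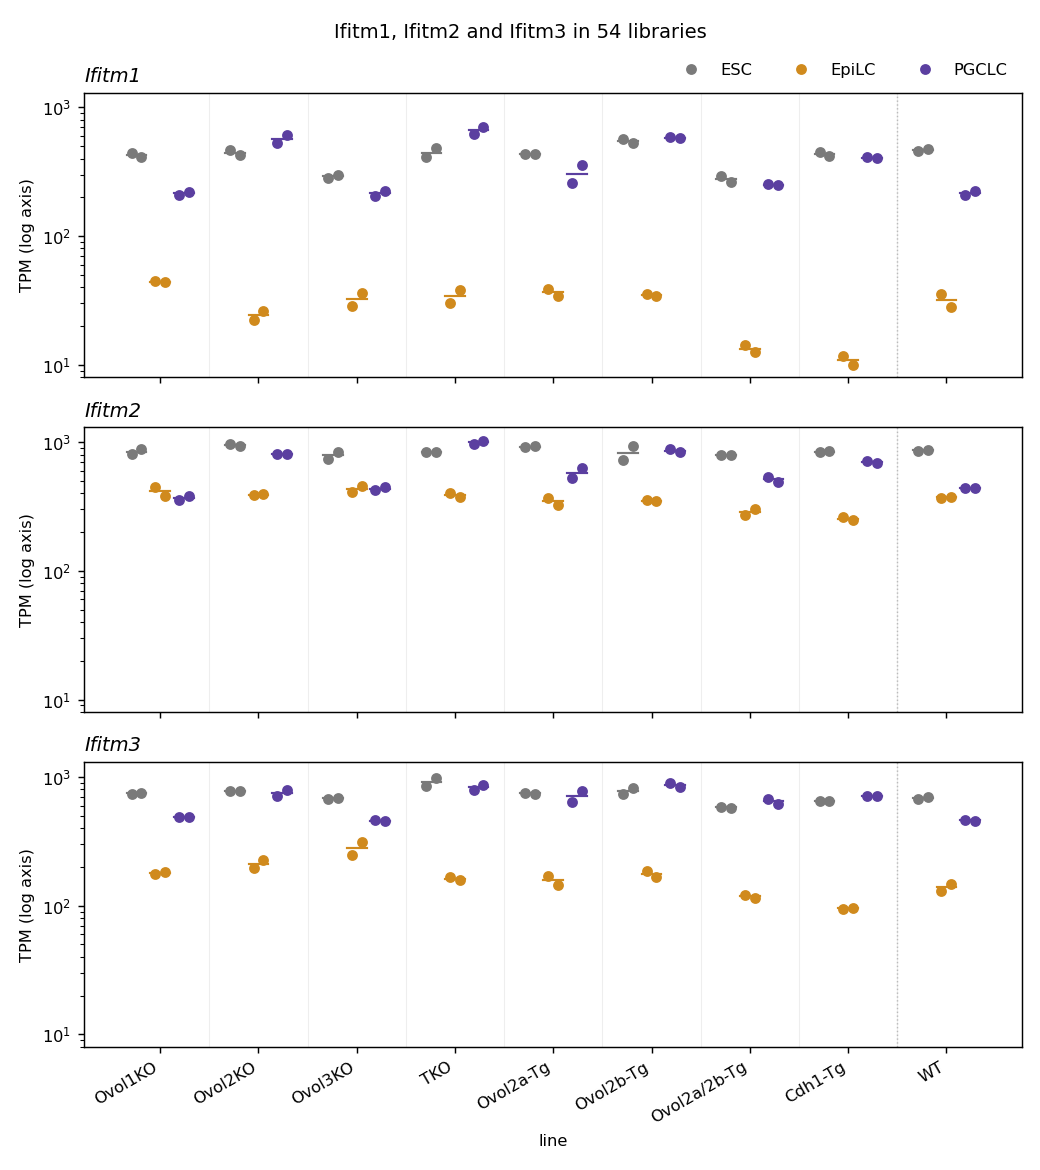
TPM of Ifitm1, Ifitm2 and Ifitm3 (log axis) in each of 54 libraries, by line and stage, with points for libraries and short lines for the mean of 2. EpiLC points lie lowest for Ifitm1 and Ifitm3 in every line. PGCLC points of Ovol2KO, TKO and every transgenic line lie above those of WT at the right for all 3 genes, by less in Ovol2a-Tg and Ovol2a/2b-Tg.

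Over all 27 groups Ifitm1 ranged from a mean of 666 ± 61.3 TPM in TKO PGCLC (SD, n = 2) to 10.8 ± 1.17 TPM in Cdh1-Tg EpiLC, which was the lowest group for the other two genes as well. Ifitm2 ranged from 994 ± 36.6 TPM in TKO PGCLC to 255 ± 10.4 TPM in Cdh1-Tg EpiLC, and Ifitm3 from 913 ± 89.3 TPM in TKO ESC to 95.4 ± 1.71 TPM in Cdh1-Tg EpiLC. When groups were ordered by their means, neighbours in the order overlapped in their libraries at 15 of 26 steps for Ifitm1, 18 of 26 for Ifitm2 and 16 of 26 for Ifitm3, so the order within each stage is loose. At the top of the Ifitm1 order, TKO PGCLC stood clear of Ovol2b-Tg PGCLC (666 and 582 TPM), while Ovol2b-Tg PGCLC, Ovol2KO PGCLC and Ovol2b-Tg ESC (582, 566 and 547 TPM) overlapped each with the next.

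The make-up of the trio shifted with stage. The 3 genes summed to 1632 to 2289 TPM in the 18 ESC libraries, to 354 to 803 TPM in EpiLC and to 1054 to 2599 TPM in PGCLC. Ifitm1 held 16.3 to 27.9% of that sum in ESC, 2.8 to 7.2% in EpiLC and 17.2 to 27.6% in PGCLC, with no overlap between EpiLC and the other stages. Ifitm2 held 35.8 to 48.3% in ESC, 56.9 to 71.2% in EpiLC and 33.6 to 40.6% in PGCLC. Ifitm3 held 33.8 to 42.6% in ESC, 24.6 to 38.6% in EpiLC and 33.3 to 46.5% in PGCLC. Ifitm3 exceeded Ifitm1 in all 18 libraries of each stage. Ifitm2 was above Ifitm3 in 15 of 18 ESC libraries, 18 of 18 EpiLC libraries and 6 of 18 PGCLC libraries. EpiLC therefore held mostly Ifitm2 mRNA, while Ifitm3 was the most abundant in most PGCLC libraries.

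**Figure D2:**
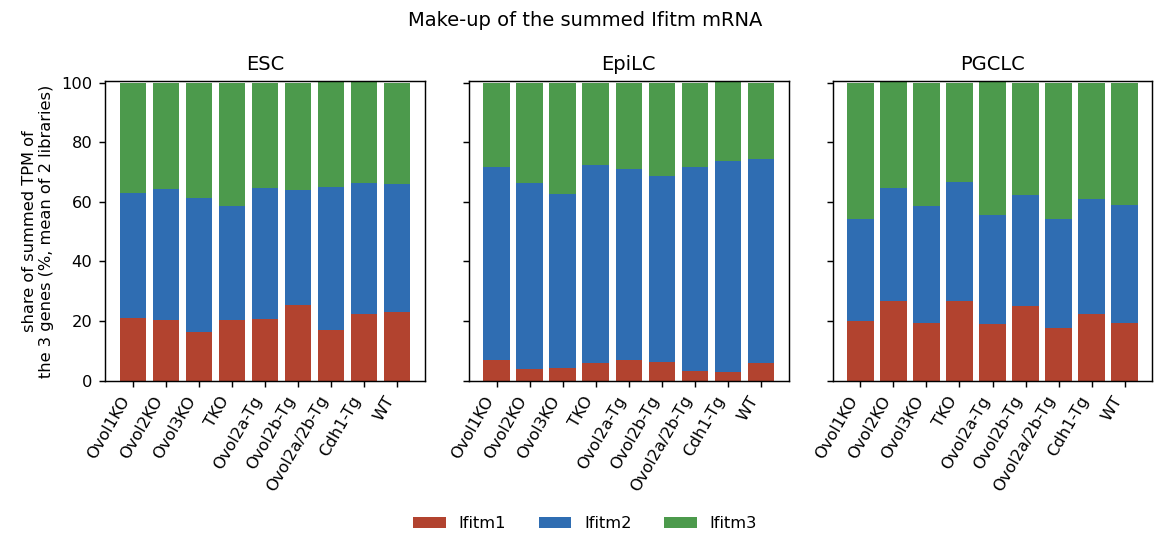
Share of the summed TPM of the 3 genes held by each (percent, mean of 2 libraries), by line and stage, with WT at the right of each panel. Ifitm1 shrinks to 2.8 to 7.2% of the sum in EpiLC libraries, where Ifitm2 takes 56.9 to 71.2%.

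In PGCLC, Ovol2KO had 528 and 605 TPM of Ifitm1 and TKO had 622 and 709 TPM, against 209 and 222 TPM in WT. Ifitm2 was at 805 and 802 TPM in Ovol2KO and at 968 and 1020 TPM in TKO, against 441 and 439.9 TPM in WT. Ifitm3 was at 715 and 786 TPM in Ovol2KO and at 795 and 870.1 TPM in TKO, against 463 and 458 TPM in WT. Both lines lay above WT without overlap for every one of the 3 genes, a separation whose share over all tested genes was not counted. In Ovol2KO, Ifitm1 rose by 1.39 ± 0.11 (limma, adjusted p = 3.84e-07), while Ifitm2 (0.87 ± 0.07) and Ifitm3 (0.70 ± 0.08) passed the p threshold alone (limma, adjusted p = 6.34e-07 and 9.99e-06). In TKO, Ifitm1 rose by 1.62 ± 0.11 (limma, adjusted p = 5.05e-08) and Ifitm2 by 1.17 ± 0.07 (limma, adjusted p = 2.2e-08), and Ifitm3 was at 0.85 ± 0.08 (limma, adjusted p = 8.97e-07). Thus 1 of 3 genes was called in Ovol2KO PGCLC, where 8.18% of tested genes were, and 2 of 3 in TKO PGCLC, where 10.5% were.

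TKO and Ovol2KO were close to each other. The log2 fold change of TKO over Ovol2KO was 0.31 ± 0.07 for Ifitm2 (limma, adjusted p = 0.0229), 0.23 ± 0.11 for Ifitm1 (95% interval 0.00 to 0.47, limma, adjusted p = 0.246) and 0.15 ± 0.08 for Ifitm3 (−0.02 to 0.32, limma, adjusted p = 0.304). None of the 3 was called, with 0.985% of tested genes called.

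The lines titled Ovol1KO and Ovol3KO had Ifitm levels near WT in PGCLC. Ovol1KO had 209 and 221 TPM of Ifitm1, 354 and 384 of Ifitm2 and 490.4 and 491 of Ifitm3. Ovol3KO had 206 and 223 TPM of Ifitm1, 425 and 445 of Ifitm2 and 461 and 452 of Ifitm3. For Ovol3KO the log2 fold change was −0.01 for Ifitm1 (95% interval −0.24 to 0.22), −0.02 for Ifitm2 (−0.17 to 0.14) and −0.01 for Ifitm3 (−0.18 to 0.15), with limma adjusted p of 0.957, 0.864 and 0.914. No Ifitm gene was called in Ovol3KO PGCLC, where 12.8% of all tested genes were. In Ovol1KO PGCLC, where 0.666% of tested genes were called, Ifitm2 was at −0.26 ± 0.07 (limma, adjusted p = 0.074), Ifitm1 at 0.00 ± 0.11 and Ifitm3 at 0.09 ± 0.08, and none was called.

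Ovol2b-Tg was the transgenic line with the highest Ifitm levels in PGCLC. It had 589 and 575 TPM of Ifitm1, 881 and 837 of Ifitm2 and 902 and 833 of Ifitm3. Cdh1-Tg had 408 and 402 TPM of Ifitm1, 712 and 685 of Ifitm2 and 711 and 713 of Ifitm3. Ovol2a-Tg had 257 and 353 TPM of Ifitm1, 525 and 633 of Ifitm2 and 637 and 775 of Ifitm3, and its pair differed more than that of any other PGCLC group. Ovol2a/2b-Tg had 252 and 249 TPM of Ifitm1, 538 and 493 of Ifitm2 and 673 and 617 of Ifitm3. Every one of these libraries lay above the WT libraries of the same gene. How many of all tested genes did so was not counted.

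Against WT, Ifitm1 rose by 1.43 ± 0.11 in Ovol2b-Tg (limma, adjusted p = 2.58e-07), the 1 call among these lines, where 8.3% of tested genes were called. Ifitm2 (0.96 ± 0.07) and Ifitm3 (0.91 ± 0.08) were short of the fold threshold in that line (limma, adjusted p = 2.2e-07 and 7.2e-07). In Cdh1-Tg, where 9.86% of tested genes were called, the log2 fold changes were 0.91 ± 0.11, 0.66 ± 0.07 and 0.63 ± 0.08 for Ifitm1, Ifitm2 and Ifitm3 (limma, adjusted p = 1.29e-05, 4.93e-06 and 1.71e-05). In Ovol2a-Tg, with 3.43% called, they were 0.48 ± 0.11, 0.39 ± 0.07 and 0.61 ± 0.08 (limma, adjusted p = 0.00734, 0.00184 and 8.9e-05). In Ovol2a/2b-Tg, with 7.62% called, they were 0.22 ± 0.11, 0.22 ± 0.07 and 0.48 ± 0.08 (limma, adjusted p = 0.144, 0.0256 and 0.000231). Over the 8 lines, 4 of 24 comparisons of an Ifitm gene with WT were called in PGCLC and all 4 were higher, and 17 of 24 passed the p threshold. The share of all tested genes passing that threshold alone was not counted. An unadjusted p under 0.05 was found in 18 of 24, and per line in 2651 (Ovol1KO) to 7560 (Ovol3KO) of all 14416 tested genes. The 24 comparisons share the WT libraries.

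**Figure D3:**
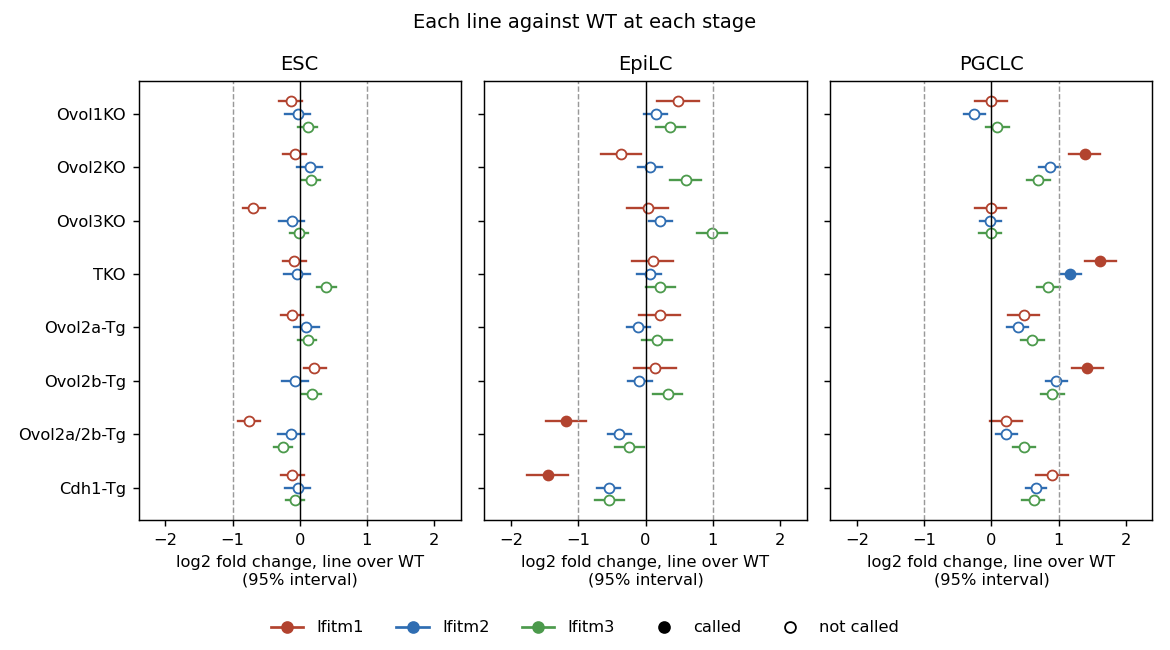
Log2 fold change of each line over WT with 95% intervals, for Ifitm1, Ifitm2 and Ifitm3 in ESC, EpiLC and PGCLC; filled points were called, and dashed lines mark a log2 fold change of 1. The 4 filled points in PGCLC are on the right (Ovol2KO, TKO and Ovol2b-Tg) and the 2 in EpiLC on the left (Ovol2a/2b-Tg and Cdh1-Tg).

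The transgenic lines were also compared with TKO and with each other, which does not involve WT. Ifitm1 was lower than in TKO by a log2 fold change of −1.14 ± 0.11 in Ovol2a-Tg (limma, adjusted p = 1.75e-05) and −1.40 ± 0.11 in Ovol2a/2b-Tg (limma, adjusted p = 2.96e-07). Both were called, with 3.29% and 8.37% of tested genes called. Without the Ovol2a-Tg library at 257 TPM the first was −0.91 and no longer past the fold threshold. Ifitm2 was at −0.78 ± 0.07 in Ovol2a-Tg and −0.95 ± 0.07 in Ovol2a/2b-Tg, and Ifitm3 at −0.24 ± 0.08 and −0.37 ± 0.08 (limma, adjusted p = 1.25e-05, 2.4e-07, 0.048 and 0.00183). The Ifitm2 value of Ovol2a/2b-Tg was called, at −1.01, without its library at 538 TPM. Cdh1-Tg stood between TKO and WT: its log2 fold change over TKO was −0.71 ± 0.11 for Ifitm1, −0.51 ± 0.07 for Ifitm2 and −0.22 ± 0.08 for Ifitm3 (limma, adjusted p = 0.000456, 0.000259 and 0.058), none called, with 2.3% of tested genes called. Ovol2b-Tg over TKO gave −0.19 ± 0.11 for Ifitm1 (95% interval −0.42 to 0.04), −0.21 ± 0.07 for Ifitm2 (−0.36 to −0.06) and 0.06 ± 0.08 for Ifitm3 (−0.11 to 0.23), with limma adjusted p of 0.44, 0.176 and 0.788, and 0.354% of tested genes were called.

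Ovol2a and Ovol2b are the forms of Ovol2 named in the titles of the transgenic lines. The 2 single transgenic lines differed in Ifitm1, at −0.95 ± 0.11 for Ovol2a-Tg over Ovol2b-Tg (limma, adjusted p = 0.000356), short of the fold threshold (and past it, at −1.17, without the Ovol2a-Tg library at 353 TPM), with Ifitm2 at −0.57 ± 0.07 and Ifitm3 at −0.30 ± 0.08 (limma, adjusted p = 0.0007 and 0.0385). There 0.93% of tested genes were called. Ovol2a/2b-Tg lay below Ovol2b-Tg in Ifitm1 by a called −1.21 ± 0.11 (limma, adjusted p = 2.9e-06), with 5.17% of tested genes called, and was at −0.74 ± 0.07 in Ifitm2 and −0.43 ± 0.08 in Ifitm3 (limma, adjusted p = 5.43e-06 and 0.000966). Against Ovol2a-Tg it was at −0.27 ± 0.11, −0.16 ± 0.07 and −0.13 ± 0.08 for Ifitm1, Ifitm2 and Ifitm3 (95% intervals −0.50 to −0.03, −0.32 to −0.01 and −0.29 to 0.04; limma, adjusted p = 0.11, 0.14 and 0.309), with 2.39% of tested genes called. Transgene levels differed between these lines: Ovol2 stood at 900.4 and 867 TPM in Ovol2a-Tg PGCLC, 345 and 296 in Ovol2b-Tg and 3403 and 3189.7 in Ovol2a/2b-Tg. The form and the amount of Ovol2 mRNA cannot be told apart in these comparisons. The sample descriptions of Cdh1-Tg, Ovol2a-Tg and Ovol2a/2b-Tg are also written in another style than those of the other lines, and whether those libraries were made apart from the rest cannot be told apart from the lines.

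In EpiLC, Ifitm1 fell in Ovol2a/2b-Tg and in Cdh1-Tg. Ovol2a/2b-Tg EpiLC had 14.1 and 12.5 TPM of Ifitm1 and Cdh1-Tg EpiLC had 11.7 and 10 TPM, against 35.4 and 27.9 TPM in WT EpiLC. The log2 fold change was −1.19 ± 0.14 in Ovol2a/2b-Tg (limma, adjusted p = 1.39e-05) and −1.46 ± 0.14 in Cdh1-Tg (limma, adjusted p = 1.61e-06). Ifitm2 was at −0.39 ± 0.08 and −0.55 ± 0.08 in these 2 lines (limma, adjusted p = 0.00148 and 6.88e-05), and Ifitm3 at −0.24 ± 0.10 and −0.54 ± 0.10 (limma, adjusted p = 0.0844 and 0.000734). Ifitm3 went the other way in Ovol3KO EpiLC, with 248 and 309.9 TPM against 131 and 147 TPM in WT, a log2 fold change of 0.99 ± 0.10 (limma, adjusted p = 7.79e-06) that was just short of the threshold and passed it, at 1.15 and 1.07, without the Ovol3KO library at 248 TPM or the WT library at 147 TPM. In Ovol2KO EpiLC, Ifitm3 was at 195 and 228 TPM (0.60 ± 0.10, limma, adjusted p = 0.00211). In all, 2 of 24 comparisons were called in EpiLC, 8 passed the adjusted p threshold and 13 had an unadjusted p under 0.05, by limma. Of all 14416 tested genes, 2538 (Ovol1KO) to 7113 (Cdh1-Tg) had an unadjusted p under 0.05 in an EpiLC comparison. How many passed the adjusted p threshold alone was not counted. The shares of tested genes called were 0.486% in Ovol1KO, 1.42% in Ovol2KO, 2.85% in Ovol3KO, 2.3% in TKO, 6.38% in Cdh1-Tg, 4.5% in Ovol2a/2b-Tg, 1.67% in Ovol2b-Tg and 2.06% in Ovol2a-Tg.

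In ESC none of the 24 comparisons was called by limma or by limma-voom on recovered reads. By limma 5 passed the adjusted p threshold and 7 had an unadjusted p under 0.05. Of all 14416 tested genes, 2194 (Ovol1KO) to 5544 (Ovol2a-Tg) had an unadjusted p under 0.05 in an ESC comparison. The share passing the adjusted p threshold alone was not counted. Ifitm1 was at 283 and 298 TPM in Ovol3KO ESC and at 291 and 265 TPM in Ovol2a/2b-Tg ESC, against 460 and 476 TPM in WT ESC. The log2 fold changes were −0.69 ± 0.08 (limma, adjusted p = 6.83e-05) and −0.75 ± 0.08 (limma, adjusted p = 1.2e-05). Ifitm3 was at 849.8 and 976 TPM in TKO ESC, against 676 and 702 TPM in WT ESC (0.40 ± 0.06, limma, adjusted p = 0.000579). The shares of tested genes called in ESC were 0.541% in Ovol1KO, 3.36% in Ovol2KO, 1.85% in Ovol3KO, 4.08% in TKO, 6.4% in Cdh1-Tg, 4.31% in Ovol2a/2b-Tg, 5.56% in Ovol2b-Tg and 4.95% in Ovol2a-Tg.

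Whether the difference of a line from WT changed between PGCLC and EpiLC was tested directly, as the PGCLC effect minus the EpiLC effect. For Ifitm1 this difference was called in 5 of 8 lines, positive in each: 1.75 ± 0.17 in Ovol2KO, 1.51 ± 0.17 in TKO, 1.29 ± 0.17 in Ovol2b-Tg, 2.36 ± 0.17 in Cdh1-Tg and 1.40 ± 0.17 in Ovol2a/2b-Tg (limma, adjusted p = 1.46e-09, 2.09e-08, 8.22e-07, 9.19e-13 and 1.86e-07). For Ifitm2 it was called in TKO (1.11 ± 0.12), Ovol2b-Tg (1.05 ± 0.12) and Cdh1-Tg (1.21 ± 0.12), with limma adjusted p of 9.72e-09, 6.79e-08 and 1.82e-09. For Ifitm3 it was called in Cdh1-Tg (1.17 ± 0.13, limma, adjusted p = 1.02e-08) and, with the opposite sign, in Ovol3KO (−1.0 ± 0.13, limma, adjusted p = 1.01e-07). The Ovol3KO value sat at the fold threshold and was no longer called, at −0.84 to −0.99, without any 1 of 4 libraries: the EpiLC libraries at 309.9 TPM (Ovol3KO) and 131 TPM (WT) and the PGCLC libraries at 452 TPM (Ovol3KO) and 463 TPM (WT). In Ovol2a/2b-Tg and Cdh1-Tg the Ifitm1 value joins a lower level in EpiLC with a level at or above WT in PGCLC. The shares of tested genes called for this difference were 0.576% in Ovol1KO, 7.71% in Ovol2KO, 16.1% in Ovol3KO, 9.41% in TKO, 9.61% in Cdh1-Tg, 7.07% in Ovol2a/2b-Tg, 7.6% in Ovol2b-Tg and 3.01% in Ovol2a-Tg.

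The 3 genes moved together across the lines of a stage to differing degrees. Over the mean log2(TPM + 1) of the 9 lines, Pearson's r in PGCLC was 0.98 for Ifitm1 and Ifitm2, 0.91 for Ifitm1 and Ifitm3 and 0.93 for Ifitm2 and Ifitm3. In EpiLC the values were 0.86, 0.67 and 0.89, and in ESC 0.52, 0.63 and 0.39. Part of the reads may be shared between the genes: the longest identical run of their coding bases was 69 bases for Ifitm2 and Ifitm3, 64 for Ifitm1 and Ifitm3 and 40 for Ifitm1 and Ifitm2. Of the stretches of 50 bases in Ifitm2, 3.3% also occur in Ifitm3, of those in Ifitm1 2.2% occur in Ifitm3, and none of those in Ifitm1 occurs in Ifitm2. The read numbers recovered from the table were 40 to 4797 per library for Ifitm1, 242 to 6559 for Ifitm2 and 146 to 5665 for Ifitm3.

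Over the means of the 27 groups, the gene whose pattern was most like that of Ifitm1 and of Ifitm3 was Alpl, which encodes the alkaline phosphatase used to stain early germ cells (r = 0.977 and 0.978). For Ifitm1 the next were Ifitm3 (0.977), Mesdc1 (0.975), Skap2 (0.969) and Bcl3 (0.968). For Ifitm3 they were Ifitm1 (0.977), Bcl3, a partner of NF-κB proteins (0.974), Stat3, the transcription factor through which leukaemia inhibitory factor acts in mouse ESC (0.970), and Socs3, a feedback inhibitor of cytokine receptors (0.970). For Ifitm2 the 5 were Slc6a8, the creatine transporter (0.966), Sgms1, a sphingomyelin synthase (0.937), Smtnl2 (0.933), Sh3bp1 (0.930) and Zfp839 (0.928), with Ifitm1 at rank 20 and Ifitm3 at rank 23. These values are a description over groups that share stages and lines. Alpl and Socs3 were picked by their likeness over these same groups, so their values there restate that likeness and add no support. Alpl shared the stage pattern in WT, with 316 and 314 TPM in ESC, 32.6 and 31.1 in EpiLC and 147 and 162 in PGCLC. It also rose in PGCLC of Ovol2KO (1.45 ± 0.12, limma, adjusted p = 4.98e-07), TKO (1.24 ± 0.12, limma, adjusted p = 1.2e-06) and Ovol2b-Tg (1.04 ± 0.12, limma, adjusted p = 1.06e-05). In Ovol3KO PGCLC, Alpl was at 0.38 ± 0.12 and Socs3 at 0.23 ± 0.22 (limma, adjusted p = 0.0151 and 0.426).

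The 3 Ifitm genes were set beside lists of other interferon genes. Between PGCLC and EpiLC of WT, 14 of 26 tested interferon-stimulated genes rose and 2 fell, with a median log2 fold change of 1.21, against 0.15 over all tested genes. Of all tested genes 13.5% rose and 7.62% fell in that step. Gbp2, a guanylate-binding protein of antimicrobial defence, rose by 5.26 ± 0.22, the ubiquitin-like modifier Isg15 by 4.89 ± 0.41 and the immunity-related GTPase Irgm1 by 4.63 ± 0.25 (limma, adjusted p = 1.45e-20, 2.33e-12 and 2.43e-17). Of 15 interferon receptor and signalling genes 9 rose and 1 fell (median 1.18), among them Irf1, a transcription factor of the interferon response (2.93 ± 0.12, limma, adjusted p = 1.94e-21), and the receptor chain Ifngr2 (2.44 ± 0.22, limma, adjusted p = 1.04e-11). Of 10 antigen presentation genes 7 rose and none fell (median 1.39), led by the immunoproteasome subunit Psmb8 (4.46 ± 0.21, limma, adjusted p = 4.42e-19). Gbp2 and Isg15, the 2 interferon-stimulated genes with the largest rise in that step, were listed at 0 and 0 TPM and 0.479 and 0 TPM in WT ESC. Between EpiLC and ESC of WT, 2 interferon-stimulated genes rose and 8 fell of 26 (median 0.02, against −0.01 over all tested genes). Of all tested genes 9.33% rose and 11.2% fell there. Of 15 receptor and signalling genes 5 fell and none rose (median −0.70), with 3 falls left without the first WT EpiLC library. Antigen presentation genes rose in 4 of 10 and fell in 1 (median 0.82), or in 2 without the second WT library of either stage. With a pseudocount of 0.1 TPM, 4 interferon-stimulated genes rose between EpiLC and ESC and 4 fell between PGCLC and EpiLC, and without the second WT PGCLC library 1 fell in the later step.

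In Ovol3KO PGCLC, where the 3 Ifitm genes stood at −0.01 to −0.02 against WT, 12.8% of all tested genes were called and genes of several lists fell, interferon genes among them. Of 26 interferon-stimulated genes, 12 fell and 1 rose (median −0.66, against −0.12 over all tested genes, of which 8.5% fell and 4.34% rose). Gbp2 was at 4.9 and 3.31 TPM in Ovol3KO, against 74.6 and 64.7 TPM in WT (−3.80 ± 0.16, limma, adjusted p = 1.86e-09), and Isg15 at 2.39 and 3.23 TPM in Ovol3KO, against 36.8 and 51.6 TPM in WT (−3.56 ± 0.30, limma, adjusted p = 6.1e-07). Of the receptor and signalling genes 7 of 15 fell and none rose (median −0.81), with Irf1 at −2.27 ± 0.10 and Jak2, a kinase of cytokine receptors, at −1.92 ± 0.27 (limma, adjusted p = 1.74e-09 and 3.78e-05). Of the antigen presentation genes 8 of 10 fell and none rose (median −1.83), with Psmb8 at 3.84 and 3.99 TPM in Ovol3KO, against 47.5 and 49.6 TPM in WT (−3.33 ± 0.14, limma, adjusted p = 1.74e-09). Of 14 early germ cell genes 6 rose and 2 fell (median 0.71), led by Dppa3, or Stella (3.15 ± 0.26, limma, adjusted p = 2.32e-07), and 1 fell without the first Ovol3KO library or the second WT library. Of 14 streak and mesoderm genes 13 fell and none rose (median −2.99), led by Msgn1 (−7.09 ± 0.64) and Mesp1 (−5.34 ± 0.47), transcription factors of early mesoderm (limma, adjusted p = 5.64e-06 and 3.96e-06). Of 10 BMP targets 5 fell and none rose (median −1.14). Naive ESC markers summed to 704 to 799 TPM in Ovol3KO PGCLC, against 325 to 339 in WT PGCLC. EpiLC markers summed to 422 to 536 TPM in Ovol3KO, against 242 to 286 in WT, and PGC markers to 369.9 to 379 TPM in Ovol3KO, against 167 to 177 in WT. Their part in the falls of interferon genes was not tested.

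In Ovol2KO PGCLC the interferon-stimulated genes were split. Of 26, 2 rose and 2 fell (median 0.15, against 0.04 over all tested genes, of which 4.11% rose and 4.07% fell). Oasl2, an oligoadenylate synthetase-like protein, rose to 46.3 and 45.4 TPM in Ovol2KO, against 17.5 and 19.5 TPM in WT (1.27 ± 0.16, limma, adjusted p = 3.15e-05). Bst2, the virus-tethering protein tetherin, fell to 46.9 and 32.3 TPM in Ovol2KO, against 112 and 126 TPM in WT (−1.59 ± 0.14, limma, adjusted p = 1.17e-06). In TKO PGCLC 7 rose and 2 fell (median 0.42, against 0.03 over all tested genes, of which 5.58% rose and 4.95% fell), with Gbp3 at 1.92 ± 0.22 and Oasl2 at 1.74 ± 0.16 among the rises (limma, adjusted p = 8.87e-06 and 8.97e-07). Antigen presentation genes rose in 2 of 10 in Ovol2KO and 3 of 10 in TKO and fell in none, with Psmb8 at 1.35 ± 0.14 and 1.99 ± 0.14 (limma, adjusted p = 5.82e-06 and 9.09e-08). Of 15 receptor and signalling genes 2 rose in each line. Ifnar2, a chain of the type I interferon receptor, rose by 1.12 ± 0.19 in Ovol2KO and 1.66 ± 0.19 in TKO (limma, adjusted p = 0.000393 and 7.02e-06). In the transgenic lines, 9 of the 26 interferon-stimulated genes were called higher and 3 lower in Cdh1-Tg PGCLC (median 0.28, against 0.06 over all tested genes, of which 5.56% were higher and 4.3% lower). In Ovol2a/2b-Tg 5 were higher and 1 lower (median 0.24, against 0.03, with 4.68% and 2.95% of all tested genes). In Ovol2b-Tg 6 were higher and 1 lower (median 0.57, against 0.03, with 5.16% and 3.14%), and in Ovol2a-Tg 6 were higher and none lower (median 0.51, against 0.02, with 2.09% and 1.33%). Several of these counts rest on the processing or on single libraries. In Ovol2a/2b-Tg 2 interferon-stimulated rises were left with quantile normalization and with limma-voom. The fall in that line was lost with a pseudocount of 0.1 and without the filter. In Ovol2KO 1 rise of a receptor or signalling gene was left with quantile normalization. Without the second Ovol2a-Tg library 3 rises were left in that line, without the first Ovol2a/2b-Tg library 2 were left in that line, and without 1 of the WT libraries, whichever it was, 3. The fall in Ovol2a/2b-Tg was lost without its second library or the second WT library, and without the first Ovol2a-Tg library 1 gene fell in Ovol2a-Tg. Without the first Cdh1-Tg library, or without the second WT library, 1 fall was left in Cdh1-Tg. Without the second WT library, 1 fall (interferon-stimulated) and 0 rises (receptor and signalling) were left in Ovol2KO, and without the second Ovol2KO library 1 rise of a receptor or signalling gene.

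**Figure D4:**
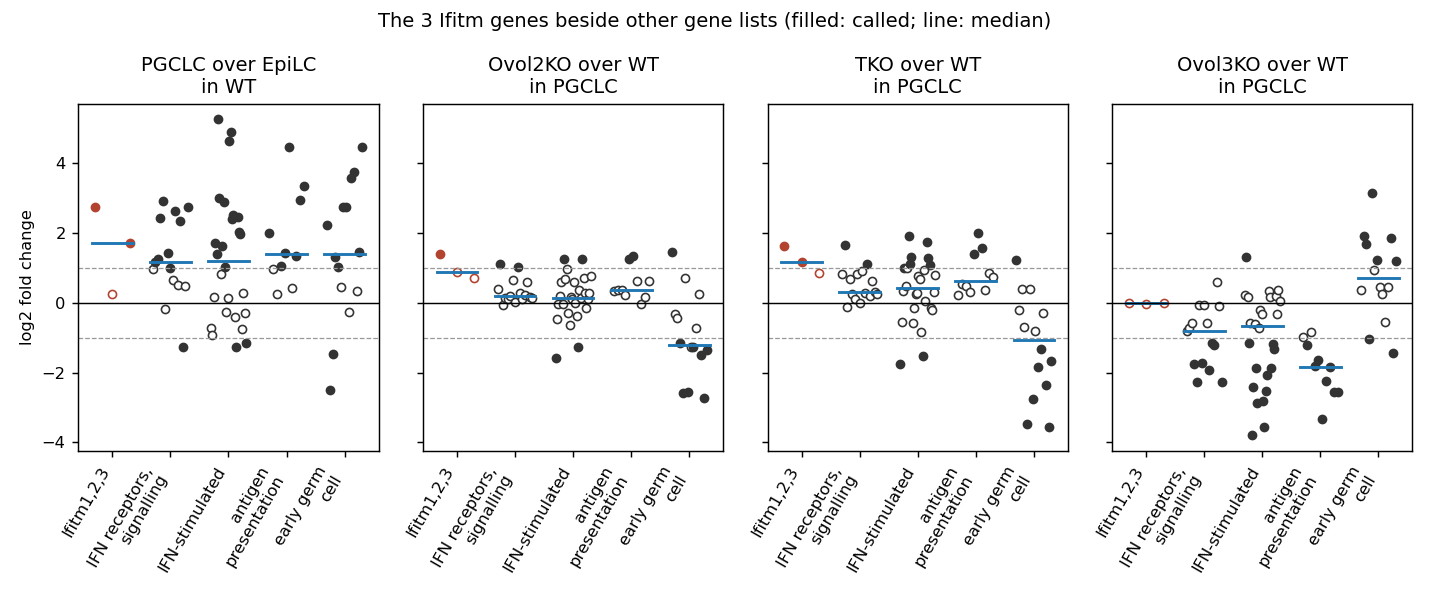
Log2 fold changes of Ifitm1, Ifitm2 and Ifitm3 (red) and of the members of 4 gene lists (dark) in 4 comparisons; filled points were called, and blue lines are medians. In Ovol3KO over WT the Ifitm genes lie at −0.01 to −0.02. There 8 of 10 antigen presentation genes, 12 of 26 interferon-stimulated genes and 8.5% of all tested genes were called lower. In Ovol2KO and TKO over WT the Ifitm genes lie above 0. In each, 7 of 14 early germ cell genes were called lower, against 4.07% (Ovol2KO) and 4.95% (TKO) of all tested genes.

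In PGCLC of Ovol2KO and TKO, where the 3 Ifitm genes lay above WT, germ cell genes fell more often than they rose. Of 14 early germ cell genes 1 rose and 7 fell in each (medians −1.21 and −1.07), the rise being Alpl in both. Of all tested genes 4.11% rose and 4.07% fell in Ovol2KO (median 0.04). In TKO 5.58% rose and 4.95% fell (median 0.03). Tdrd5, a germ cell tudor protein, was at −2.73 ± 0.29 and −3.57 ± 0.29, and Dppa3 at −2.58 ± 0.26 and −3.48 ± 0.26, in Ovol2KO and TKO (limma, adjusted p = 5.69e-06, 2.62e-07, 3.94e-06 and 1.32e-07). Between stages of WT, 8 of the 14 germ cell genes fell and 2 rose in EpiLC over ESC, where 11.2% of all tested genes fell and 9.33% rose. In PGCLC over EpiLC 9 rose and 2 fell, where 13.5% of all tested genes rose and 7.62% fell. Of 10 BMP targets 3 rose and 1 fell in Ovol2KO and 4 rose and 1 fell in TKO, with Bambi at 2.20 ± 0.20 and 2.38 ± 0.20 (limma, adjusted p = 1.57e-06 and 4.29e-07). Of 14 streak and mesoderm genes 4 rose and 2 fell in Ovol2KO and 5 rose and 4 fell in TKO. Among them were Eomes, a T-box factor of the streak, at −4.25 ± 0.31 in Ovol2KO and −3.35 ± 0.31 in TKO (limma, adjusted p = 2.46e-07 and 1.26e-06), and Foxf1, a factor of lateral mesoderm, at 3.53 ± 0.21 and 3.81 ± 0.21 (limma, adjusted p = 2.43e-08 and 8.52e-09). Hand1, a factor of extraembryonic mesoderm and trophoblast, was at 3.35 ± 0.47 and 3.68 ± 0.47 (limma, adjusted p = 0.000358 and 0.000121). Without the second WT library 3 rose and 2 fell in TKO.

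Markers of other cell types differed between the lines in PGCLC. The summed level of 8 trophoblast markers, which include Hand1 and Cdx2, was 1992 to 2143 TPM in TKO PGCLC, 1688 to 1888 in Ovol2b-Tg, 1589 to 1825 in Ovol2KO, 1357 to 1416 in Cdh1-Tg, 676 to 1165 in Ovol2a-Tg, 819 to 858 in Ovol2a/2b-Tg, 151 to 325 in Ovol1KO and 16.5 to 16.9 in Ovol3KO, against 297 to 384 in WT. The trophoblast markers Elf5 and Tpbpa were at 0 in both libraries of TKO, Ovol2b-Tg, Ovol2KO and WT. Fibroblast markers summed to 327 to 334 TPM in TKO, 225 to 278 in Ovol2b-Tg, 155 to 163 in Ovol2KO, 316 to 334 in Cdh1-Tg, 109 to 191 in Ovol2a-Tg, 158 to 169 in Ovol2a/2b-Tg, 25.6 to 43.5 in Ovol1KO and 12.6 to 13.9 in Ovol3KO, against 32.1 to 40.7 in WT, with Dcn at 0 in TKO and Ovol2KO and Postn and Lum at 0 in WT. The fibroblast sums of Ovol2a-Tg and Ovol2a/2b-Tg were thus near that of Ovol2KO. Endoderm markers summed to 58.8 to 65.2 TPM in TKO, 59.8 to 66.2 in Ovol2b-Tg, 40.7 to 42.7 in Ovol2KO, 55.5 to 55.6 in Cdh1-Tg, 37.1 to 44.5 in Ovol2a-Tg, 21.8 to 27.2 in Ovol2a/2b-Tg, 9.91 to 15.3 in Ovol1KO and 2.41 to 3.61 in Ovol3KO, against 18.7 to 26.9 in WT, with Afp and Ttr at 0 in TKO, Ovol2b-Tg, Ovol2KO and WT. Endothelial markers were at 5.12 to 42.1 TPM in the PGCLC libraries. Blood and immune markers were at 2.11 to 11.8 TPM in all PGCLC libraries. The part of these markers in the Ifitm differences was not tested. In Ovol3KO PGCLC the trophoblast sum was far below that of WT.

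Naive ESC and EpiLC markers separated the titled stages: naive ESC markers summed to 1174 TPM or more in ESC libraries and to at most 165 TPM in EpiLC libraries, and EpiLC markers to at least 1500 TPM in EpiLC libraries and at most 536 TPM elsewhere. The 7 PGC markers did not mark PGCLC off from ESC: they summed to 79.1 to 379 TPM in PGCLC libraries and to 309 to 504 TPM in ESC libraries, with 20.8 to 56.9 TPM in EpiLC libraries. For 8 libraries of Ovol2a-Tg and Cdh1-Tg the cell type tags differ from the titles, and the titles were used. In Ovol2a-Tg, PGCLC libraries had 259.6 to 263 TPM of naive ESC markers and 107 to 109 of PGC markers, against 1264 to 1343 and 476 to 504 TPM in its ESC libraries. In Cdh1-Tg EpiLC, where Ifitm1 was lowest, EpiLC markers summed to 2858 to 2914 TPM, against 2042 to 2093 in WT EpiLC, and naive ESC markers to 22.4 to 27.4 TPM, against 57.6 to 59.9 in WT EpiLC. In Ovol3KO EpiLC, where Ifitm3 was highest among EpiLC groups, EpiLC markers summed to 1500.0 to 1605 TPM and naive ESC markers to 118 to 165 TPM. Their part in the Ifitm levels was not tested.

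The other Ifitm genes in the table were scarce. Ifitm5, a bone-restricted member in the mouse, reached at most 5.42 TPM, Ifitm6 at most 2.01, Ifitm7 at most 12.1 and Ifitm10 at most 0.58, and 3 of these 4 were tested. Ifitm5 rose in TKO PGCLC, with 3.28 and 5.42 TPM against 0.594 and 0.444 TPM in WT PGCLC (1.79 ± 0.38, limma, adjusted p = 0.00169). It was also called higher in Cdh1-Tg PGCLC, at 2.7 and 2.1 TPM (1.16 ± 0.38, limma, adjusted p = 0.0243), and that call was lost without any 1 of the 4 libraries. In Ovol2a/2b-Tg it was called higher in ESC, with 3.66 and 2.88 TPM against 1.02 and 0.98 TPM in WT ESC (1.09 ± 0.28, limma, adjusted p = 0.0122), and lower in PGCLC than in TKO PGCLC (−1.10 ± 0.38, limma, adjusted p = 0.0324). The PGCLC effect minus the EpiLC effect was called for Ifitm5 in TKO (1.85 ± 0.64) and for Ifitm7 in Cdh1-Tg (−1.54 ± 0.56), with limma adjusted p of 0.0337 and 0.0439. Ifitm7 was called lower in PGCLC than in EpiLC of WT (−1.04 ± 0.39, limma, adjusted p = 0.0233), and leaving out single WT libraries could end that call.

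Within 200 kb of the trio the table held 22 other genes, of which 20 were tested. Between EpiLC and ESC of WT, where all 3 Ifitm genes fell, 1 of these 20 rose and 3 fell (9.33% and 11.2% of all tested genes), B4galnt4 (−2.19), Sigirr (−1.64) and Ano9 (−1.41), by limma. Between PGCLC and EpiLC of WT none rose and 3 fell (13.5% and 7.62% of all tested genes). In TKO PGCLC, where Ifitm1 and Ifitm2 rose, 2 neighbours rose (Ifitm5 and Nlrp6) and 4 fell (5.58% and 4.95% of all tested genes). The falls were Pkp3, a desmosome protein (−2.72), Ano9 (−2.52), Urah (−1.15) and Sigirr (−1.03), by limma. The same 4 genes fell in Ovol2KO PGCLC and no neighbour rose (4.07% and 4.11% of all tested genes). The counts over 20 genes are small, and no test of the neighbourhood was made. Ifitm6, next to Ifitm3, and Psmd13, a proteasome subunit at 188 to 289.6 TPM, were called in none of these 4 comparisons.

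**Figure D5:**
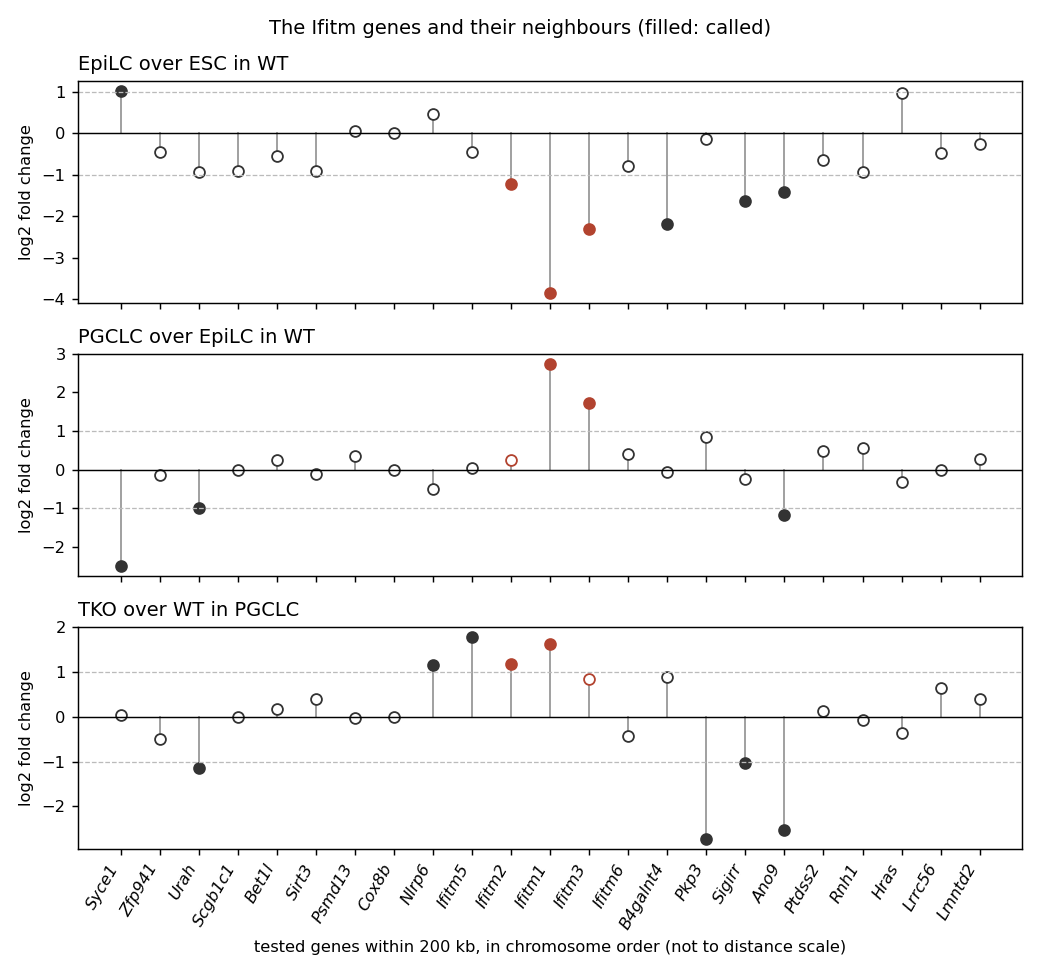
Log2 fold changes of the tested genes within 200 kb of the Ifitm genes, in chromosome order, for EpiLC over ESC and PGCLC over EpiLC in WT and for TKO over WT in PGCLC; red marks Ifitm1, Ifitm2 and Ifitm3 and filled points were called. The red points stand at −1.21 to −3.85 in EpiLC over ESC, where 3 of the 20 neighbours and 11.2% of all tested genes fell.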

How the data were processed

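The deposited table gives TPM (length-corrected transcript abundance) for 20036 genes in 54 libraries of polyadenylated RNA. HISAT2, featureCounts, edgeR and mm10 are named in the submitters' processing notes, with no versions, annotation or strand setting. Every column of the deposited TPM values sums to 1000000, so a gene's level is a share that moves when abundant genes change. Columns were matched to samples by name, and 2 columns of Ovol2b-Tg EpiLC only to their group. Ifitm1, Ifitm2 and Ifitm3 and all gene lists were chosen with earlier results of these data known.

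Genes with at least 1 TPM in at least 2 libraries were kept, and log2(TPM + 1) was fitted with limma 3.58.1 (R 4.3.3; trend and robust), using the 18 libraries of a stage for lines and all 54 for stages and for differences between stages. Adjusted p-values are Benjamini-Hochberg values over 14416 genes. The fit was tested on simulated data. From each list, up to 4 called genes with the largest change in WT PGCLC over EpiLC, and in Ovol2KO, TKO and Ovol3KO PGCLC over WT, were eligible to be named, with the 5 genes most like each Ifitm gene and those within 200 kb. Such a gene could be given in other comparisons too. Whole reads were recovered from the TPM steps for 17960 of 17973 genes above 0 (tolerance 0.02 reads), and limma-voom on them was an alternative chosen after seeing the data. The alternatives were a pseudocount of 0.1, no filter, quantile normalization, no trend, a fit of all 54 libraries, a replicate block and leaving out each library. The Ovol2b-Tg EpiLC pair differed least (chi-square per degree of freedom 1.05, p = 1.43e-05, across genes), was kept as 2 libraries and was averaged as an alternative. Sequences were read with Biopython 1.88 and figures drawn with matplotlib 3.10.9.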

Additional observations from a re-analysis of the deposited data

Results flagged for a closer look

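The change of a line's difference from WT between EpiLC and PGCLC was called for 10 of 24 pairs of line and gene, by limma. The adjusted p threshold was passed in 5 of 8 lines for Ifitm1, 6 for Ifitm2 and 6 for Ifitm3. How many of all tested genes passed it was not counted. The shares of all tested genes called ran from 0.576% in Ovol1KO to 16.1% in Ovol3KO. For Ifitm1 the change was 1.75 in Ovol2KO, 1.51 in TKO, 1.29 in Ovol2b-Tg, 1.40 in Ovol2a/2b-Tg and 2.36 in Cdh1-Tg, on the log2 scale. For Ifitm2 it was 1.11 in TKO, 1.05 in Ovol2b-Tg and 1.21 in Cdh1-Tg. For Ifitm3 it was 1.17 in Cdh1-Tg and −1.0 in Ovol3KO. In Ovol3KO the value comes from EpiLC, where Ifitm3 was at 248 and 309.9 TPM, against 131 and 147 TPM in WT, while in PGCLC it was at 461 and 452 TPM, against 463 and 458 TPM in WT. That call was lost, at −0.84 to −0.99, when single libraries were left out.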

How the results depend on the processing

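Over 129 results on the 3 genes (fold changes and differences between stages), 857 of 870 values under another setting, other than leaving out a library, kept their direction and their side of the call threshold. With quantile normalization, Ifitm3 in Ovol3KO EpiLC over WT became called at 1.02 and Ifitm2 in WT PGCLC over ESC at −1.03, and the Ifitm3 change between stages in Ovol3KO was no longer called at −0.97 (−0.88 with limma-voom). Signs turned only for values that were called in neither fit: with quantile normalization Ifitm1 in Ovol3KO EpiLC (−0.0195), Ifitm1 and Ifitm3 in Ovol3KO PGCLC (0.00565 and 0.005) and the Ifitm1 change between stages in Ovol3KO (0.0241), and with limma-voom Ifitm2 in TKO ESC (0.0115), Ifitm1 in Ovol1KO PGCLC (0.00648) and Ifitm1, Ifitm2 and Ifitm3 in Ovol3KO PGCLC (0.0237, 0.0367 and 0.0694). The cause was not tested.

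Leaving out 1 library at a time kept the direction and the call for 580 of 612 values. Calls were gained or lost for Ifitm3 in Ovol3KO EpiLC (0.83 to 1.15), Ifitm1 in Ovol2a-Tg over TKO (−1.36 to −0.91), Ifitm2 in Ovol2a/2b-Tg over TKO (−1.01 to −0.88), Ifitm1 in Ovol2a-Tg over Ovol2b-Tg (−1.17 to −0.72) and the Ifitm3 change between stages in Ovol3KO (−1.16 to −0.84). Signs turned for values near 0 that were not called. In ESC over WT these were Ifitm2 in Ovol1KO (−0.0906 to 0.0322), Ifitm3 in Ovol3KO (−0.0394 to 0.0156), Ifitm1 in TKO (−0.19 to 0.0341) and Ifitm2 in Ovol2b-Tg (−0.25 to 0.11). In EpiLC over WT they were Ifitm1 in Ovol3KO (−0.14 to 0.19), TKO (−0.0623 to 0.28) and Ovol2b-Tg (−0.0255 to 0.31). In PGCLC over WT they were Ifitm1 in Ovol1KO (−0.0488 to 0.0398) and Ifitm1, Ifitm2 and Ifitm3 in Ovol3KO (−0.0663 to 0.0456, −0.0505 to 0.0134 and −0.028 to 0.00154). The others were Ifitm3 in Ovol2b-Tg over TKO (−0.00545 to 0.13) and in Ovol2a/2b-Tg over Ovol2a-Tg (−0.27 to 0.0159), and the changes between stages of Ifitm3 in Ovol2KO (−0.0105 to 0.22) and Ifitm1 in Ovol3KO (−0.2 to 0.13).

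With the replicate number of the labels as a block, no call of an Ifitm gene changed and no count of called genes moved by over 1.5 times, and the log2 fold changes over WT in PGCLC were 1.39 (Ovol2KO) and 1.62 (TKO) for Ifitm1. The deviations of same-numbered libraries correlated at −0.21 to 0.2 in ESC, −0.06 to 0.06 in EpiLC and −0.08 to 0.18 in PGCLC. Correlations of this size cannot settle whether same-numbered libraries share a batch or a culture. The 2 unnumbered Ovol2b-Tg EpiLC libraries could not enter this fit.

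The number of called genes moved by over 1.5 times with a pseudocount of 0.1 in 8 of 43 comparisons (1.54 to 2.09 times the count given), without the filter in 5 (0.365 to 0.642), without trend and robust fitting in 3 (0.469 to 0.643), with all 54 libraries in 3 (1.54 to 1.86), with limma-voom in 22 (0.0964 to 3.69) and without 1 library in 15 (0.108 to 5.09). Where an Ifitm gene was called, the counts were 1258 (pseudocount) and 1270 (limma-voom) against 649 for Ovol2a/2b-Tg EpiLC, 1596 and 1681 against 920 for Cdh1-Tg EpiLC, and with limma-voom 966 against 475 for Ovol2a-Tg over TKO, 1855 against 1207 for Ovol2a/2b-Tg over TKO and 1254 against 745 for Ovol2a/2b-Tg over Ovol2b-Tg. With 2 libraries a group, precision rests on a spread shared over the lines, and the smallest Ifitm1 value rests on 40 reads.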
